A study of Mus musculus with 7 samples.

Results

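The genes described here encode the proteins of the mitochondrial ribosome. They were chosen as protein-coding genes whose symbol is Mrpl or Mrps followed by a number. A count minimum of at least 10 in all 7 libraries was also set. This rule used no fold changes, but earlier results of these data were known when it was chosen. All 78 genes with such a symbol met the count minimum, out of 32285 genes in the count files and 17155 genes tested. By name, 49 belong to the large subunit (Mrpl) and 29 to the small subunit (Mrps). The members lie on 17 chromosomes, and all 78 carried the same symbol at the same place in RefSeq.

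The mitochondrial ribosome translates the few mRNAs encoded by mitochondrial DNA, all of which specify subunits of the respiratory chain and the ATP synthase. Its ribosomal RNAs come from the mitochondrial genome, whereas every one of its proteins is encoded in the nucleus, made in the cytosol and imported, so the complex depends on the output of many scattered nuclear genes. Mammalian mitoribosomes hold more protein and less RNA than bacterial ones, but the decoding site still resembles the bacterial site to which aminoglycosides such as gentamicin bind, and mitochondrial translation is a known concern in aminoglycoside damage of inner ear hair cells.

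The utricle is a balance organ of the inner ear. Utricles of postnatal day 2 mice were cultured as explants, and 12 were pooled for each library. The paper's methods name C57BL/6J mice for the explants. They give no genotype for the sequenced pools, and some overexpression explants of the paper came from Fos reporter mice. All 7 libraries came from tissue exposed to 2 mM gentamicin for 24 h, which kills hair cells, and were taken at day 5 after injury. The 4 Gent+Fos OE libraries also received an AAV-PHP.eB virus for 48 h in which the ubiquitous CMV promoter drives mouse Fos, a subunit of the AP-1 transcription factor. For the 3 Gent libraries the labels name gentamicin as the treatment, while a figure legend of the paper compares with a control AAV group. Whether these libraries received a control virus is not settled by the sources, so each fold change rests on the labels. There was no uninjured group, and the virus is not restricted to one cell type of the organ. The replicates are separate pools that the labels call biological replicates.

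Sequences before the start sites are shown because transcription factors that act on nuclear genes of mitochondria, such as NRF1, GABPA (an ETS factor) and YY1, and the AP-1 factor to which Fos belongs, have known short recognition motifs. RefSeq GRCm38.p6, the same build as the mm10 coordinates of the files, gave windows for 69 of the 78 members, 75 windows in all, of which the 250 bases before the start were searched on both strands. Capitals mark a motif match.
Mrpl22, chr11:58171414-58171663, plus strand: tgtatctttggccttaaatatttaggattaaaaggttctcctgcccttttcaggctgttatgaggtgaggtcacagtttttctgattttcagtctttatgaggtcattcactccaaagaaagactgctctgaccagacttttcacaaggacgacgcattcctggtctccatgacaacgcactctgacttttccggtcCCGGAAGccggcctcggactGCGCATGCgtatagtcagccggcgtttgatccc
Mrpl17, chr7:105811088-105811337, minus strand: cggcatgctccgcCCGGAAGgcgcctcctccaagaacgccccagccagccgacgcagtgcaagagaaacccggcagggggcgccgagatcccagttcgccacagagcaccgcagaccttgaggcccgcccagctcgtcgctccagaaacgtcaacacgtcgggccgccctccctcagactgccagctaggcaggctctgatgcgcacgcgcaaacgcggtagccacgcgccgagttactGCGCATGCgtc
Mrpl27, chr11:94653541-94653790, plus strand: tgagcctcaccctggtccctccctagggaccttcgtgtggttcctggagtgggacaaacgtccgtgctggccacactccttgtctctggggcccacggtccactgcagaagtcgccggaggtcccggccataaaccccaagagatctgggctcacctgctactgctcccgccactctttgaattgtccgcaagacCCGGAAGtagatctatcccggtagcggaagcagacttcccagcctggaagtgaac
Mrps5, chr2:127587176-127587425, plus strand: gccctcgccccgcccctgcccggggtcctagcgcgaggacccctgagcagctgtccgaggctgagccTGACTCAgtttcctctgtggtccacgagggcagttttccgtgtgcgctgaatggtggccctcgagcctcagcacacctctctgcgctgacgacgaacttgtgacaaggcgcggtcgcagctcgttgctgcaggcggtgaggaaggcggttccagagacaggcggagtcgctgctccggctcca

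The windows of Mrpl22 and Mrpl17 are shown because both hold the ETS core and the NRF1 core, that of Mrpl27 because it holds an ETS core and the gene had one of the largest differences between the groups, and that of Mrps5 because it holds an AP-1 motif and the gene had the smallest difference. The NRF1 core GCGCATGC lay in 10.7% of member windows and in 3.70% of 14918 windows of other tested protein-coding genes. The ETS core CCGGAAG lay in 18 of the 75 member windows against 11.6% of the others, and the YY1 core AAGATGGC in 5.33% against 1.71%. The AP-1 motif TGANTCA lay in 4.00% of member windows, those of Mrpl33, Mrps25 and Mrps5, against 5.05% of the others. The cAMP response element TGACGTCA lay in 2.67% against 2.37%. Over all 32851 windows of the table, the shares were 2.26% for NRF1, 6.91% for ETS, 1.56% for YY1, 6.75% for AP-1 and 1.55% for the cAMP response element. The gene models of the files start farther upstream than these RefSeq starts for Mrps5 and Mrpl17, so the AP-1 match of Mrps5 and the NRF1 match of Mrpl17 lie inside the models used for counting. Some genes have more than one window, none of these motifs contains another, and a match describes letters only.

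Totals ran from 27879889 to 34335214 counts per library, and single members had 176 to 5019 counts in a library. Fos itself stood at 149 to 167 CPM in Gent+Fos OE and 34.6 to 40.6 CPM in Gent, where CPM is the TMM-normalised count scaled to the library total (log2 fold change 2.01 ± 0.13 SE, edgeR adjusted p = 0.000142). Of the 7, Gent replicate 2 stood apart: its short genes read high, with a rank correlation of -0.50 across genes between gene length and log2 CPM taken relative to the 7-library mean. The same measure lay between 0.12 and 0.33 in the Gent+Fos OE libraries, and was 0.15 in Gent replicate 1 and -0.22 in Gent replicate 3. The mean that it is taken against includes Gent replicate 2. Gent replicate 2 also had the highest share of counts on mitochondrially encoded genes, 2.86% against 1.74 to 1.99% in the others. Since the members are short, with a median gene model of 2394 bp against 4084 bp for tested genes, many values are given both with and without this library. Hair cell and supporting cell markers of the utricle were present in all 7 libraries.

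Mitoribosomal protein genes showed lower levels with Fos overexpression in 78 of 78 cases, by a modest amount. The median log2 fold change was -0.41, against -0.00 over all tested genes, of which 50.1% were lower. No single member passed the limits of the test, and the size of the difference was set in large part by Gent replicate 2, without which the median was -0.20 and 74 of 78 members were lower. Summed over the members, Gent+Fos OE libraries 1 to 4 held 1845, 1852, 2001 and 2054 CPM, and Gent libraries 1 to 3 held 2070, 3313 and 2329 CPM. Every Gent sum was above every Gent+Fos OE sum, but Gent replicate 1 lay next to Gent+Fos OE replicate 4. The group means were 1938 ± 106 CPM (SD, n = 4) and 2571 ± 656 CPM (SD, n = 3), and the Gent mean was 2200 ± 183 CPM (SD, n = 2) without replicate 2. The members took 0.186 to 0.207% of all counts in Gent+Fos OE, and 0.202%, 0.323% and 0.235% in Gent replicates 1, 2 and 3. In such bulk tissue, fewer cells of a type and less RNA per cell cannot be told apart.

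**Figure D1:**
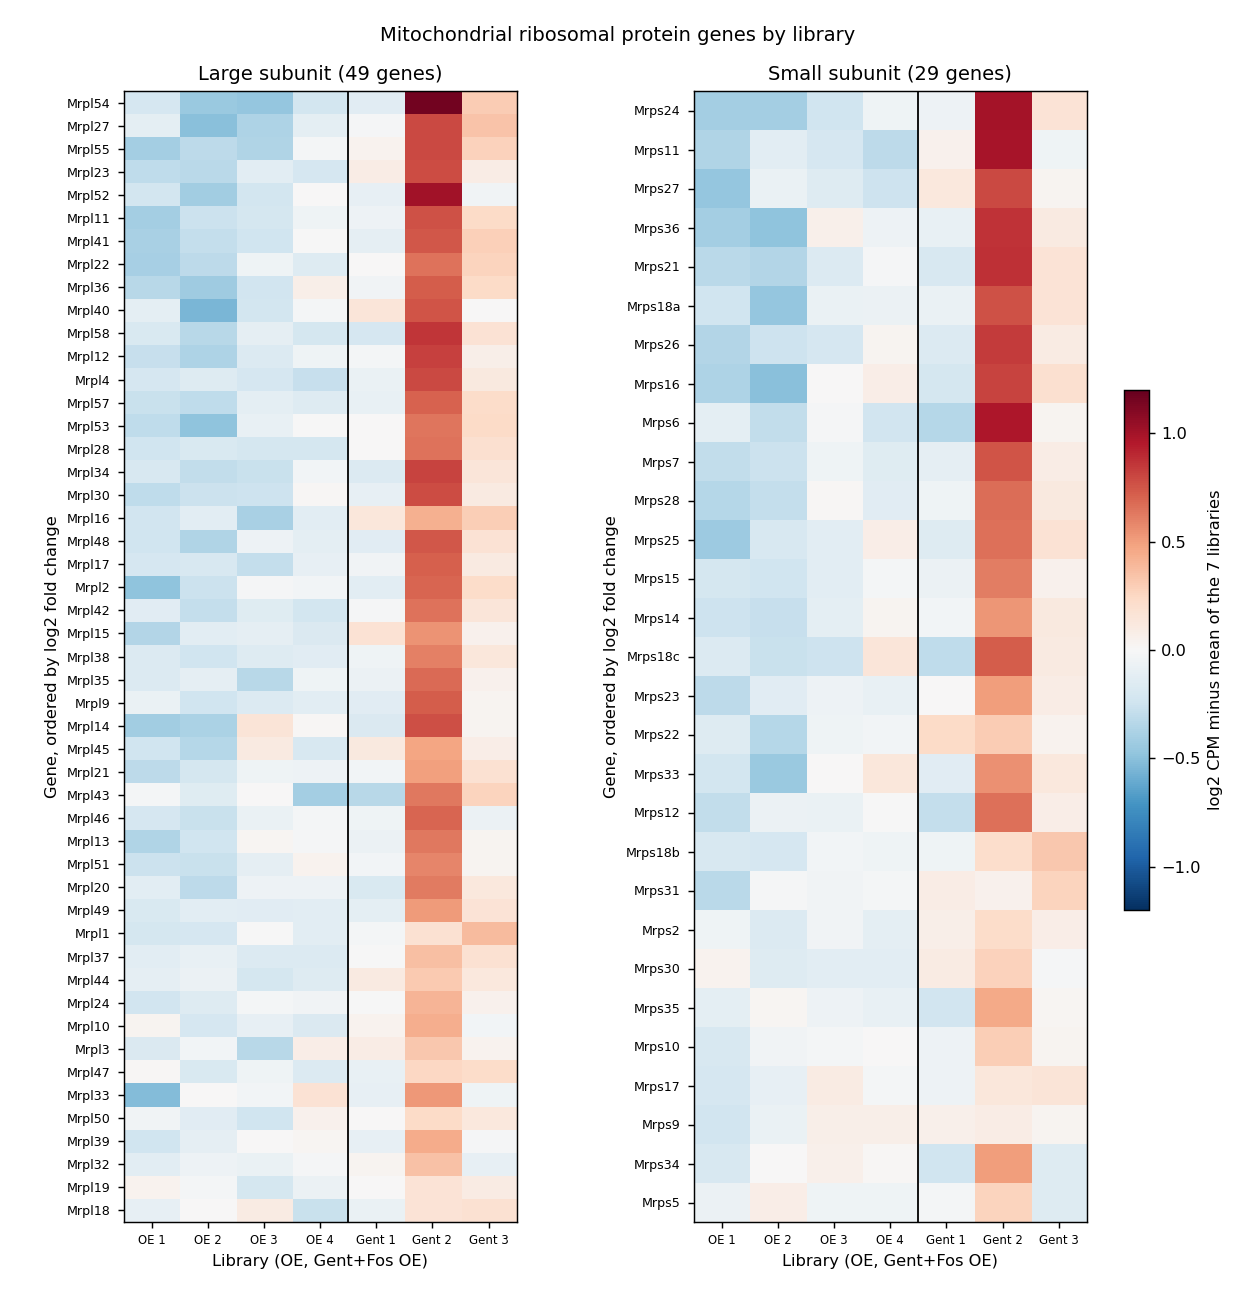
Each row is a member gene and each column a library (OE, Gent+Fos OE); the colour is the log2 CPM minus the mean of the 7 libraries, from blue (low) to red (high). Gent replicate 2 is the highest library for 73 of 78 genes, and Gent replicates 1 and 3 lie much closer to the Gent+Fos OE libraries.

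Calls required a log2 fold change beyond 0.25 in either direction together with a p under 0.01 after Benjamini-Hochberg adjustment over all tested genes. In edgeR's quasi-likelihood test 0 members were called, where 0.28% of all tested genes were called lower. The lowest adjusted p of a member was 0.0939, for Mrpl16. At an unadjusted p under 0.05, 46 members were lower and 0 higher, beside 13.4% of all tested genes lower. These 46 were 33 of 49 large subunit genes and 13 of 29 small subunit genes. DESeq2 called 0 members at the same limits, and 8 at an adjusted p under 0.05 with no limit on fold change, beside 5.24% of the genes it gave an adjusted p. In DESeq2 0 members passed that limit without Gent replicate 2, and the lowest adjusted p was 0.0686, for Mrpl16. In 27 of 78 members, 21 large and 6 small, every Gent+Fos OE library lay below every Gent library, beside 12.2% of all tested genes. The median log2 fold change was -0.43 for the large and -0.37 for the small subunit (-0.22 and -0.18 without Gent replicate 2), a difference that was not tested. Standard errors of single members ran from 0.12 to 0.26 on the log2 scale.

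The largest difference was in Mrpl54 (ENSMUSG00000034932, chr10:81264713-81266934, minus strand), a small protein of the large subunit. It stood at 14.3, 12.1, 12.0 and 14.2 CPM in Gent+Fos OE replicates 1 to 4, and at 15.1, 37.0 and 20.3 CPM in Gent replicates 1 to 3. The groups did not overlap, and the upper end of the Gent group was a single library. The log2 fold change was -0.88 ± 0.26 SE (edgeR adjusted p = 0.104, exact permutation p = 0.0286, two-sided, the smallest that 35 splits of 4 and 3 libraries can give), and -0.44 without Gent replicate 2.

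Mrps24 (ENSMUSG00000020477, chr11:5703983-5715680, minus strand), a small subunit protein, had 25.86, 25.96, 29.19 and 33.22 CPM in Gent+Fos OE and 32.9, 68.6 and 38.6 CPM in Gent. Here Gent replicate 1 lay just inside the range of the other group. Its log2 fold change was -0.71 ± 0.23 SE (edgeR adjusted p = 0.119), and -0.33 without Gent replicate 2. The model shares 15.4% of its exonic bases with Urgcp, where reads over both genes were not counted.

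Mrpl27 (ENSMUSG00000024414, chr11:94653767-94660089, plus strand), whose start window is printed above, had 16.9, 13.0, 14.2 and 16.9 CPM in Gent+Fos OE against 18.2, 31.9 and 23.2 CPM in Gent. The groups did not overlap, and the order among the Gent libraries was again replicate 2, 3, 1. The log2 fold change was -0.68 ± 0.19 SE (edgeR adjusted p = 0.0995) and -0.45 without Gent replicate 2. Mrpl55 gave -0.67 ± 0.19 SE (adjusted p = 0.0985) and Mrps11 -0.66 ± 0.24 SE (adjusted p = 0.149) in the same edgeR fit, both without overlap of the groups, and -0.44 and -0.25 without Gent replicate 2. Mrpl46, whose gene overlaps that of Mrps11 on chromosome 7, was at -0.38, and at -0.08 without that library.

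Mrpl16 was named after its values were seen, as the member with the lowest adjusted p and the one that leaned least on Gent replicate 2 among members with a log2 fold change under -0.50. It had 14.0, 15.1, 12.6 and 15.1 CPM in Gent+Fos OE and 18.1, 22.2 and 20.1 CPM in Gent, with all 3 Gent libraries close together and above the other group. The log2 fold change was -0.50 ± 0.14 SE, and -0.43 without Gent replicate 2 (edgeR adjusted p = 0.105). In DESeq2 its adjusted p was 0.0215, and the other 7 members at an adjusted p under 0.05 there were Mrpl54, Mrpl27, Mrpl55, Mrpl23, Mrpl28, Mrps24 and Mrpl22.

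**Figure D2:**
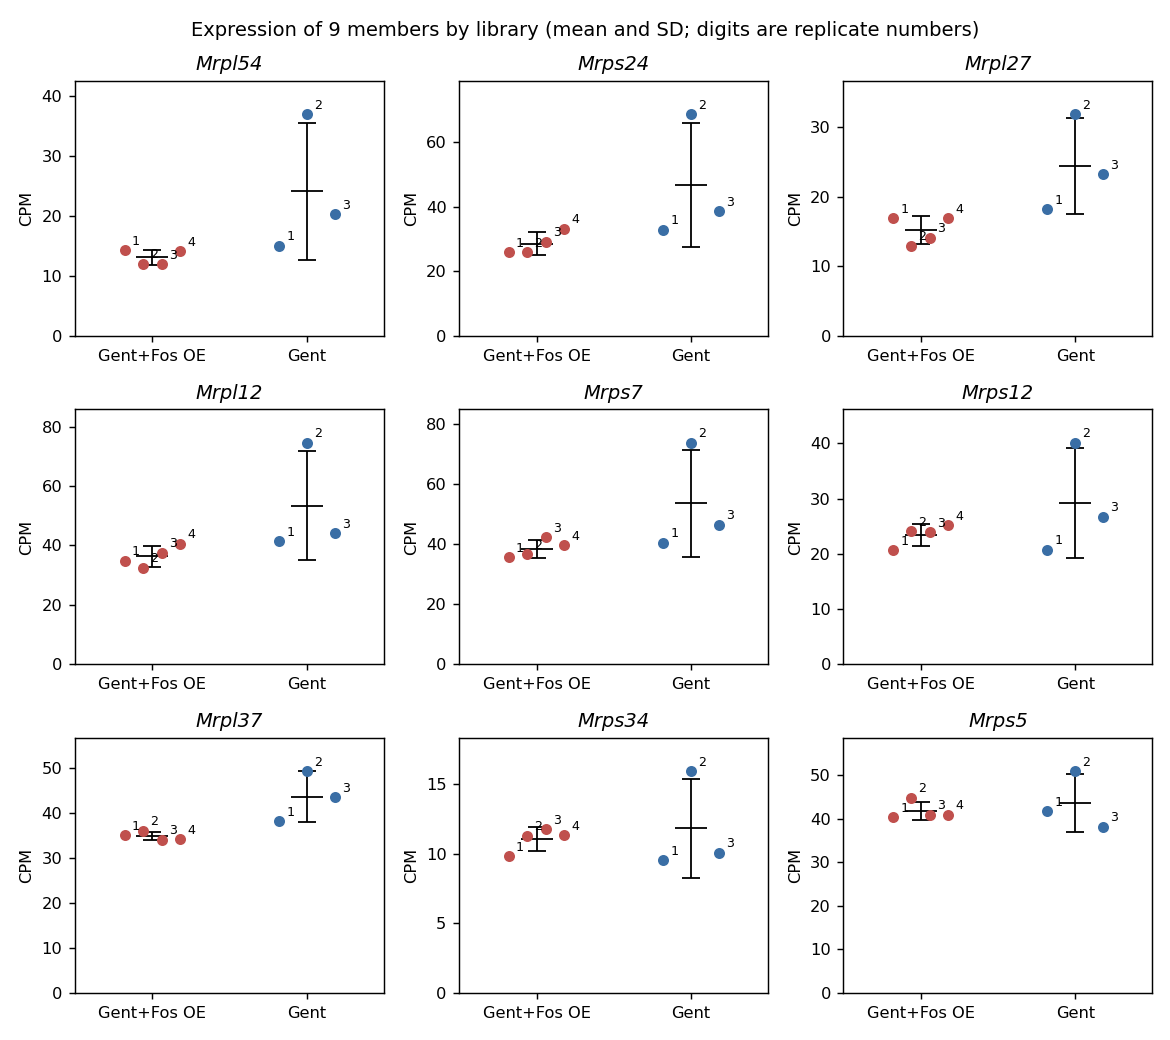
Expression of 9 members in CPM, with red points for Gent+Fos OE and blue points for Gent libraries, replicate digits beside the points, and the mean and SD in black. In all 9 genes Gent replicate 2 is the highest library, from 37.0 CPM in a group otherwise at 15.1 and 20.3 CPM for Mrpl54 to 50.9 CPM in a group otherwise at 41.8 and 38.2 CPM for Mrps5.

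Among proteins of the stalk that receives translation factors, Mrpl12, the mobile stalk protein, had 34.9, 32.6, 37.6 and 40.6 CPM in Gent+Fos OE and 41.5, 74.6 and 44.1 CPM in Gent. The groups were separated by less than 1 CPM between Gent+Fos OE replicate 4 and Gent replicate 1. Its log2 fold change was -0.55 ± 0.20 SE (edgeR adjusted p = 0.144), and -0.24 without Gent replicate 2. Mrpl11 and Mrpl10, which form the base to which the stalk is anchored, gave log2 fold changes of -0.57 and -0.27 (-0.32 and -0.12 without that library), with overlapping groups in both.

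Proteins around the exit tunnel, where the nascent chain meets the inner membrane, were represented by Mrpl23 and Mrpl45. Mrpl23 (ENSMUSG00000037772, chr7:142532686-142540747, plus strand) had 22.01, 21.74, 25.01 and 23.63 CPM in Gent+Fos OE and 29.1, 46.8 and 29.0 CPM in Gent, so the 2 Gent libraries other than replicate 2 agreed closely and lay above the other group. Its log2 fold change was -0.60 ± 0.18 SE (edgeR adjusted p = 0.108), and -0.33 without Gent replicate 2. Mrpl45, which tethers the ribosome to the membrane, gave -0.39 ± 0.15 SE (-0.26 without Gent replicate 2) with Gent+Fos OE replicate 3 at 41.6 CPM, inside the Gent range of 40.9 to 53.8 CPM.

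Around the decoding site, Mrps12, the homologue of the bacterial protein in which streptomycin resistance arises, had 20.6, 24.1, 23.9 and 25.2 CPM in Gent+Fos OE and 20.7, 40.1 and 26.8 CPM in Gent. The groups overlapped, and Gent replicate 1 was next to the lowest library. Its log2 fold change was -0.32 ± 0.20 SE (edgeR adjusted p = 0.342) and -0.02 without Gent replicate 2, so nearly all of the difference lay in 1 library. Mrps7, a protein of the head of the small subunit, had a log2 fold change of -0.48, and -0.18 without that library.

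Several members are genes in which inherited defects of mitochondrial translation have been found in people. Among them, Mrps2 had 25.5, 23.5, 25.7 and 24.4 CPM against 27.7, 30.8 and 27.9 CPM, a small difference in which the groups did not overlap (log2 fold change -0.22 ± 0.12 SE, edgeR adjusted p = 0.273). Mrpl44, which has a ribonuclease-like fold, had 21.4, 22.0, 19.9 and 20.7 CPM against 24.9, 28.7 and 25.2 CPM, also without overlap (-0.32 ± 0.12 SE, edgeR adjusted p = 0.160). The groups did not overlap for Mrps22 (-0.34), and overlapped for Mrps16 (-0.50, and -0.19 without Gent replicate 2) and Mrpl3 (-0.26). Mrpl37, a protein with no bacterial counterpart, had 35.1, 36.1, 34.1 and 34.2 CPM against 38.1, 49.3 and 43.5 CPM (-0.32 ± 0.13 SE, edgeR adjusted p = 0.162), and its 4 Gent+Fos OE libraries spanned less than 2 CPM.

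Some members have roles or places that their names do not give. Mrpl58, a peptidyl-tRNA hydrolase that rescues stalled ribosomes, had a log2 fold change of -0.55, and -0.21 without Gent replicate 2. Mrps30 and Mrps18a sit in the large subunit in structures of the mitoribosome despite their names, and gave -0.22 and -0.53 (-0.14 and -0.26 without that library). Of the other paralogs of Mrps18a, Mrps18b gave -0.29 and Mrps18c -0.37, the latter at -0.05 without Gent replicate 2. Mrps36, which is also known as a subunit of the oxoglutarate dehydrogenase complex, gave -0.56, and -0.22 without it. The groups overlapped in all 6 of these genes, and their edgeR adjusted p values lay between 0.154 and 0.337.

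At the other end, Mrps5 (ENSMUSG00000027374, chr2:127587222-127606829, plus strand) had 40.3, 44.9, 40.9 and 41.0 CPM in Gent+Fos OE and 41.8, 50.9 and 38.2 CPM in Gent, with a log2 fold change of -0.06 ± 0.13 SE (edgeR adjusted p = 0.787). Its Gent libraries lay on both sides of the other group, and the direction turned, to 0.06, without Gent replicate 2. Mrps34 (chr17:24895116-24897502) had 9.84, 11.3, 11.8 and 11.3 CPM against 9.52, 15.9 and 10.1 CPM, so 2 of its 3 Gent libraries were below at least 3 of the 4 Gent+Fos OE libraries (-0.10 ± 0.20 SE, edgeR adjusted p = 0.775, and 0.17 without Gent replicate 2). Of its exonic bases, 77.8% are shared with Mapk8ip3 or Nme3, and reads over several genes were not counted. Mrps9, Mrps17, Mrpl18 and Mrpl19 had log2 fold changes between -0.10 and -0.15. Of the members, 29 share some exonic bases with another gene and 8 share over 20%. The 49 members with none had a median log2 fold change of -0.43, and 49 of 49 were lower (-0.22, and 46 of 49, without Gent replicate 2).

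Gent replicate 2 was above all 4 Gent+Fos OE libraries in 78 of 78 members, and was the highest of the 7 libraries in 73 (Gent replicate 3 was highest for Mrpl1, Mrps18b, Mrps31, Mrpl18 and Mrps17). Over the 17155 tested genes it was above all 4 Gent+Fos OE libraries in 6484 and the highest library in 32.4%. Gent replicate 3 was above all 4 Gent+Fos OE libraries in 62 members and in 4983 of all tested genes. Gent replicate 1 was above them in 32 members (4612 of all tested genes), within their range in 42 and below them in 4 (Mrps6, Mrps18c, Mrps35 and Mrps34). The median deviation of the members from the 7-library mean was -0.23, -0.24, -0.11 and -0.05 on the log2 scale in Gent+Fos OE replicates 1 to 4, and -0.06, 0.65 and 0.11 in Gent replicates 1 to 3. The medians of the Gent libraries thus lay farther apart than those of the Gent+Fos OE libraries, and Gent replicate 1 lay between Gent+Fos OE replicates 3 and 4.

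Leaving out Gent replicate 2 gave a median log2 fold change of -0.20. In that fit 20 members were lower at an unadjusted p under 0.05, beside 10.2% of all tested genes, and 0 were higher. Of the 20, 19 were large subunit genes and 1 a small subunit gene. The members that were not lower were Mrps34 (0.17), Mrps5 (0.06), Mrps35 (0.03) and Mrpl33 (0.00). Without Gent replicate 1 the median was -0.57, 59 members were lower at an unadjusted p under 0.05, beside 16.8% of all tested genes, and 26 were lower at an adjusted p under 0.05, beside 5.25% of all tested genes. The lowest adjusted p was then 0.0244, for Mrpl54, and 0 members were called. Without Gent replicate 3 the median was -0.49. Leaving out a Gent+Fos OE library gave medians between -0.45 and -0.38 with 78 of 78 members lower each time.

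**Figure D3:**
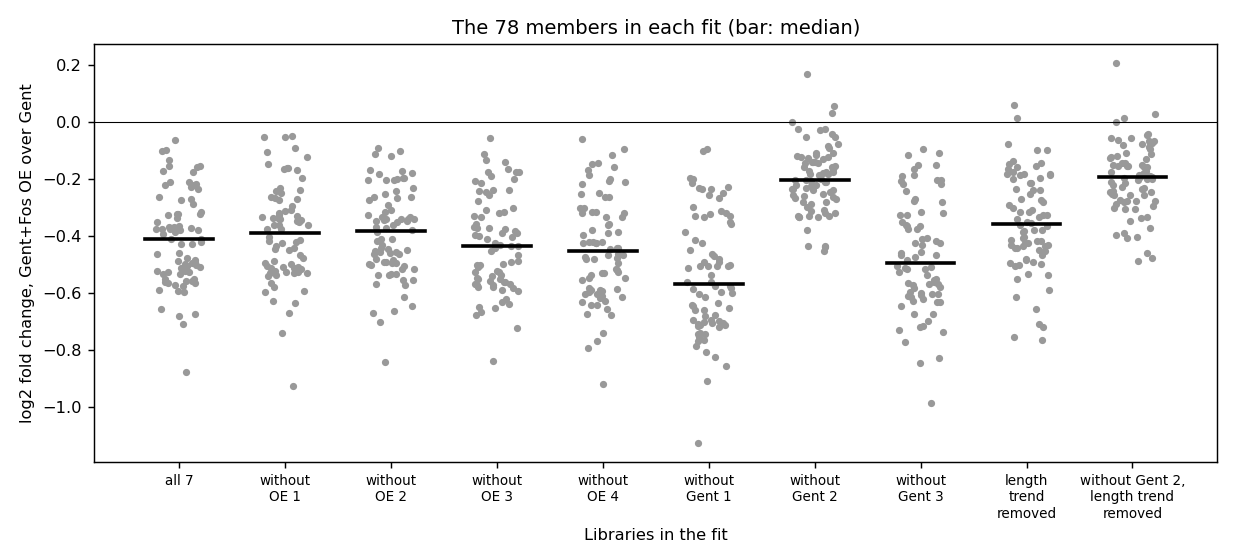
Log2 fold changes of Gent+Fos OE over Gent for the 78 members (points, spread sideways at random within a column) with the median as a bar, for all 7 libraries, for each library left out, and with the trend on gene length removed. The median is lowest, -0.57, when Gent replicate 1 is left out and nearest to 0, -0.20, when Gent replicate 2 is (-0.19 with the length trend removed as well).

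Gene length moved with the fold changes of all genes, so members were set beside other protein-coding genes whose model length lay within 25% of their own, 120 to 4560 genes for each member. The log2 fold change of a member was lower than the median of these genes in 67 of 78 cases, and the median of the differences was -0.21. This figure was -0.12 without Gent replicate 2, where 62 of 78 were below, -0.26 without Gent replicate 1 and -0.24 without Gent replicate 3. Part of the median fold change was thus also seen in other genes of like length. The part of length itself was not tested. When the trend on length was removed from each library, the median was -0.36, 76 of 78 members were lower (Mrpl18 and Mrps34 were at 0.02 and 0.06), and the median difference from genes of similar length was -0.21. With Gent replicate 2 left out as well, the median was -0.19 and 75 of 78 were lower.

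The 26 shortest members, of 607 to 1664 bp, had a median log2 fold change of -0.52, and other protein-coding genes of that range -0.40. The 26 members of 1667 to 3291 bp had -0.39 against -0.21, and the 26 longest, of 3332 to 8631 bp, -0.33 against 0.04. The gap to other genes was thus widest among the long gene models. Without Gent replicate 2 the 3 pairs of medians were -0.22 against -0.17, -0.20 against -0.11 and -0.17 against 0.01. Mrpl48 (8152 bp), Mrpl17 (7605 bp) and Mrpl15 (8487 bp), named after their values were seen, differed from genes of similar length by -0.67, -0.64 and -0.64 on the log2 scale, and by -0.29, -0.29 and -0.38 without Gent replicate 2. The length of the files merges all exons of a gene, so a long rare isoform lengthens a model whose main transcript is short.

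**Figure D4:**
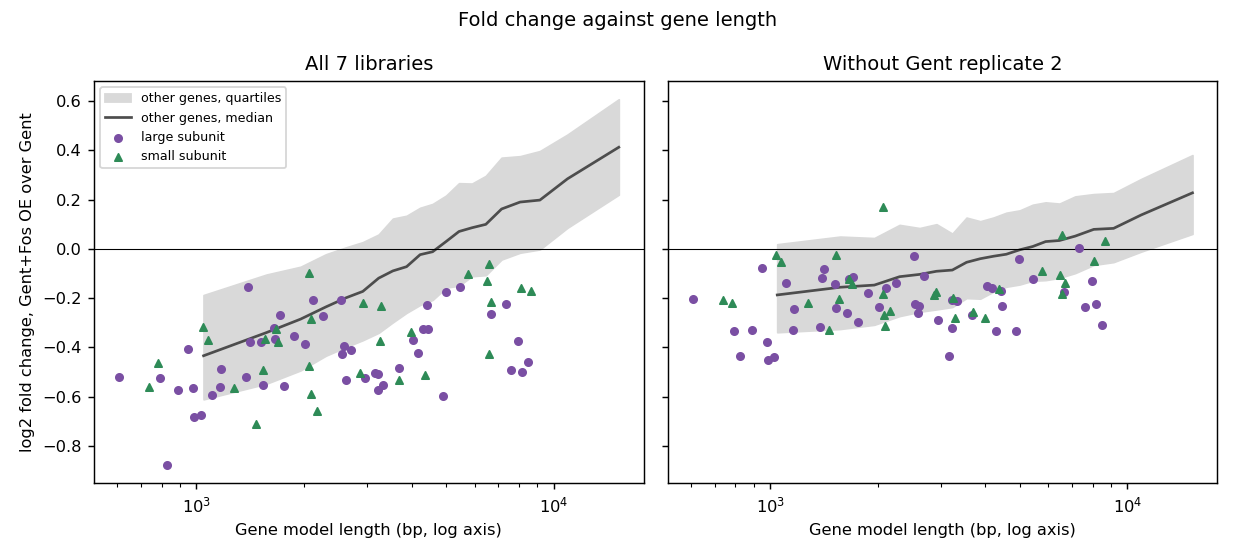
Log2 fold change of Gent+Fos OE over Gent against gene model length on a log axis, for all 7 libraries (left) and without Gent replicate 2 (right); circles and triangles are members, the line and band are the median and quartiles of protein-coding genes in 20 bins of length. The band rises with length in both panels, and most members lie under its median line, 67 of 78 below genes of similar length with all libraries and 62 of 78 without Gent replicate 2.

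Genes that start close to a member in the opposite direction offer a comparison at the same place in the genome. Such a protein-coding partner within 1000 bp was found for 19 of 78 members (24.4%) and for 9.47% of 15179 tested protein-coding genes. These 19 members had a median log2 fold change of -0.37, and their partners -0.23, with 14 of 19 partners lower. Without Gent replicate 2 these medians were -0.21 for the members and -0.06 for the partners. Mrpl54 (-0.88) starts 26 bp from Apba3 (-0.24), and Mrpl50 (-0.21) 83 bp from Zfp189, which was at 0.39. Mrpl36 (-0.56) starts head to head with Ndufs6, a complex I subunit at -0.56, and Mrps12 (-0.32) starts 172 bp from Sars2, the mitochondrial seryl-tRNA synthetase, at -0.42. Without Gent replicate 2 the partners were at -0.05 (Apba3), 0.26 (Zfp189), -0.21 (Ndufs6) and -0.29 (Sars2), and the members at -0.44, -0.16, -0.33 and -0.02. The lowest edgeR adjusted p of a partner was 0.128, for Ptcd2 beside Mrps27.

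Other genes of mitochondrial translation were followed through lists, with 0 genes called in each list by edgeR or DESeq2. At an unadjusted p under 0.05 in edgeR, 2 of the other mitoribosomal proteins, 2 translation factors, 2 genes of transcription and RNA stability and 4 mitochondrially encoded mRNAs were lower, 1 synthetase gene was higher, and 0 regulators of biogenesis passed. The share of all tested genes lower at this limit was 13.4%, so the counts of 2 of 18 translation factors and 2 of 13 transcription and RNA stability genes are near the background. Of all 17155 tested genes, 1901 were higher at this limit, beside the 1 synthetase gene of 20. With Gent replicate 2 left out, the lower genes at this limit were 1 of the other mitoribosomal proteins, 2 translation factors, 1 gene of transcription and RNA stability and 0 mitochondrially encoded mRNAs, beside 10.2% of all tested genes. Of 5 mitoribosomal proteins with other names, 4 were lower. Their median log2 fold change was -0.41, or -0.14 if Gent replicate 2 was left out. Among them Aurkaip1, a small subunit protein, had 37.0, 34.6, 37.6 and 42.9 CPM against 41.5, 75.8 and 50.3 CPM (-0.56 ± 0.19 SE, edgeR adjusted p = 0.132), and Gadd45gip1, a large subunit protein, gave -0.55. Without Gent replicate 2 they were at -0.28 and -0.29.

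Of 26 assembly factors and rRNA modifying enzymes, 22 were lower (median -0.22, and -0.08 without Gent replicate 2), and 4 were lower at an unadjusted p under 0.05, near the 13.4% of all tested genes (1 without Gent replicate 2). Mrm3, a methyltransferase of the large rRNA, had 4.43, 4.72, 3.83 and 5.13 CPM against 6.78, 7.28 and 6.36 CPM, with the 3 Gent libraries close together and above the others (-0.59 ± 0.18 SE, edgeR adjusted p = 0.113). Mpv17l2, an assembly factor of the inner membrane, was at -0.54, and at -0.29 without Gent replicate 2. Of 18 translation factors, 12 were lower (median -0.09, and 0.02 without Gent replicate 2). Mrrf, which recycles ribosomes after termination, had 14.6, 14.5, 13.3 and 16.2 CPM against 17.1, 23.0 and 21.8 CPM without overlap (-0.50 ± 0.15 SE, edgeR adjusted p = 0.109), and Oxa1l, the insertase to which the ribosome docks, was at -0.36 (-0.23 without Gent replicate 2).

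Other lists were of genes that do not form the ribosome itself. Of 20 mitochondrial aminoacyl-tRNA synthetase genes, 11 were lower (median -0.03, and -0.02 without Gent replicate 2), with Yars2 at -0.35 (-0.23 without that library). Lars2, the leucyl enzyme, had 572, 570, 594 and 3740 CPM in Gent+Fos OE and 468, 315 and 262 CPM in Gent, so that its mean rests on Gent+Fos OE replicate 4 (log2 fold change 1.97 ± 0.67 SE, edgeR adjusted p = 0.130, and 0.73 without that library). The next highest gene of this list, Iars2, reached 95.7 CPM. Whether all reads counted for Lars2 come from its mRNA was not tested. Of 13 tested genes of mitochondrial DNA transcription and RNA stability, 8 were lower (median -0.10), and 9 without Gent replicate 2 (median -0.16, against -0.20 for the members). Fastkd5 was at -0.72 with and -0.70 without that library, and Fastk at -0.45 and -0.19. Of 9 regulators of mitochondrial biogenesis, 3 were lower (median 0.03), against 5 without Gent replicate 2 (median -0.01) and 7 with the length trend removed (median -0.08), so the direction of this list depended on the setting. Gabpa, the ETS factor named above, was at 0.26, and at 0.06 without Gent replicate 2. Yy1 was at 0.13, at 0.07 without that library and at -0.00 with the length trend removed.

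Products of the mitochondrial genome and of the cytosolic ribosome shared with the members a high value in Gent replicate 2. Of 12 tested mitochondrially encoded mRNAs, 11 were lower (median -0.43, and -0.12 without Gent replicate 2). For example, mt-Nd3, a complex I subunit, had 17.3, 18.7, 28.3 and 23.8 CPM against 25.7, 53.4 and 29.3 CPM (-0.71 ± 0.26 SE, edgeR adjusted p = 0.145), and mt-Co3, a subunit of cytochrome oxidase, was at -0.45. Without Gent replicate 2 they were at -0.32 and -0.22. Multi-mapping reads were left out, so these values count uniquely mapped reads only. All mitochondrially encoded genes together took 1.74 to 2.86% of counts, of which these mRNAs were a small part. The effect of the left-out reads on these mRNAs was not tested. Their list differed from the members in Gent replicate 3, which was above all 4 Gent+Fos OE libraries in 2 of 12 mitochondrially encoded mRNAs (median deviation -0.10) and in 62 of 78 members (0.11). All 79 cytosolic ribosomal protein genes tested were lower (median -0.53, and -0.23 without Gent replicate 2), 72 of them at an unadjusted p under 0.05, beside 13.4% of all tested genes. Leaving out Gent replicate 2 brought this count to 27, beside 10.2% of all tested genes. Gent replicate 2 was the highest library for 79 of 79. Rpsa had 626, 593, 668 and 733 CPM against 831, 1383 and 872 CPM (-0.65 ± 0.18 SE, edgeR adjusted p = 0.0939), and Rpl21 was at -0.65. Without Gent replicate 2 these were at -0.38 and -0.34. With the length trend removed, the medians were -0.36 for the mitoribosomal and -0.40 for the cytosolic ribosomal genes.

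**Figure D5:**
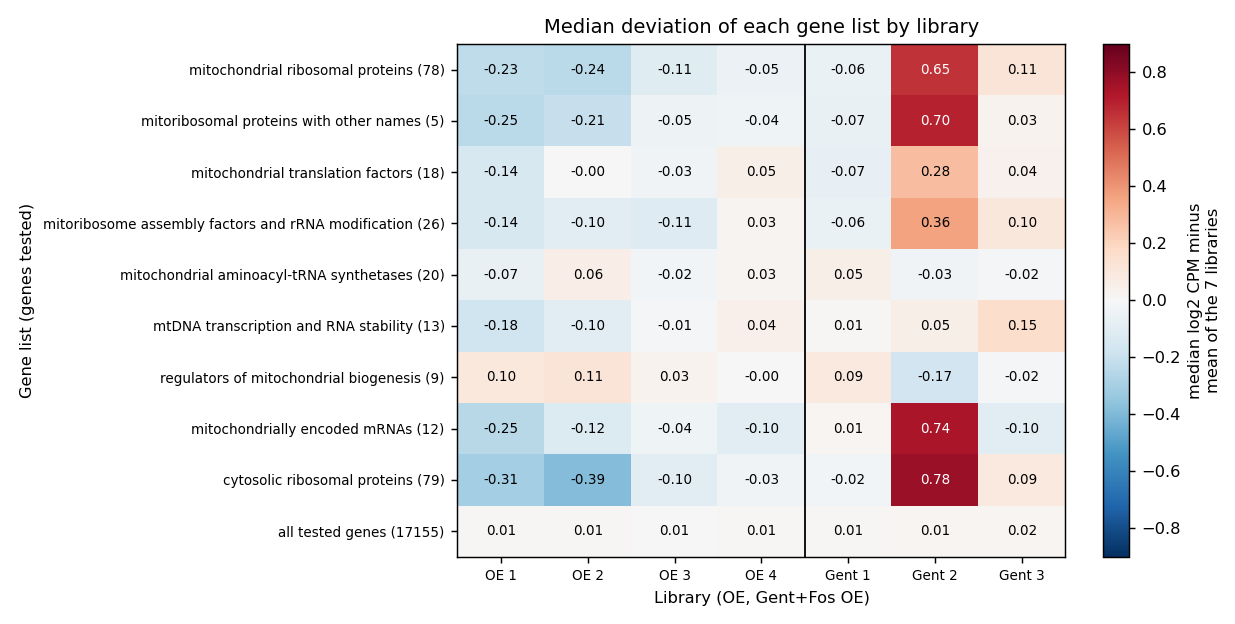
Median over each gene list (rows, number of genes tested in brackets) of the log2 CPM minus the mean of the 7 libraries, by library (columns; OE, Gent+Fos OE). Mitoribosomal, mitochondrially encoded and cytosolic ribosomal genes are highest in Gent replicate 2 (0.65, 0.74 and 0.78), and the synthetase genes are near 0 there (-0.03).

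Markers of several cell types differed in sum between the groups, with 2 melanocyte genes and 1 supporting cell gene called and 0 genes of the other marker lists. Summed melanocyte markers stood at 32.2 to 38.3 CPM in Gent+Fos OE and 70.4 to 117 CPM in Gent (6 of 6 lower), and macrophage markers at 916 to 1527 CPM against 1657 to 2034 CPM (8 of 9 lower). Proliferation genes summed to 252 to 344 CPM against 317 to 455 CPM, with overlapping ranges (8 of 8 lower). Supporting cell markers were higher in sum, at 2688 to 3086 CPM in Gent+Fos OE and 2087 to 2644 CPM in Gent without overlap, with 5 of 9 genes higher. Hair cell markers stood at 749 to 953 CPM against 636 to 777 CPM, with overlapping ranges and 4 of 8 tested genes higher. Macrophage and proliferation sums were highest in Gent replicate 1, at 2034 and 455 CPM, the Gent library in which the members were lowest. Melanocyte sums in Gent replicates 1 to 3 (70.4, 117 and 96.2 CPM), sums of Schwann cell and glia markers (334, 521 and 396 CPM) and neuron sums (45.3, 64.3 and 55.3 CPM) had the same order as the members, with replicate 2 highest and replicate 1 lowest, although 5 of 6 neuron markers were higher in Gent+Fos OE. Endothelium sums (147, 204 and 141 CPM) and mesenchyme sums (12260, 8493 and 8662 CPM) had other orders. The part of these cells in the members' values was not tested. Erythroid markers summed to at most 1.08 CPM in each library, with Hba-a2 at 0 in all.

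The members were expressed at like levels. Over the 7 libraries, 71 of 78 had a mean within 2-fold of the median member, 27.5 CPM, with the lowest at 8.51 CPM (Mrps18b) and the highest at 86.1 CPM (Mrps6). Mrps6 had 75.6, 66.7, 81.1 and 69.8 CPM in Gent+Fos OE and 64.5, 161 and 84.0 CPM in Gent, with the log2 fold change going from -0.49 to -0.02 without Gent replicate 2. Per kilobase of gene model, the median level was 10.6 CPM per kb, against 4.75 for all tested genes. The highest were Mrps6 (56.1 CPM per kb), Mrps21 (48.6) and Mrpl34 (45.2), and the lowest Mrps30 (2.60), Mrpl47 (2.84) and Mrps22 (3.21). The short models of the first 3 (1533, 739 and 607 bp) and the long models of the last 3 (6666, 4419 and 3991 bp) enter these values directly.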

How the data were processed

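RNA was sequenced from pools of 12 P2 mouse utricles, 4 Gent+Fos OE and 3 Gent libraries, grouped by the sample labels. Although 3 replicates a condition are stated in the paper's methods, all 7 labelled libraries were used. The deposited files hold raw counts of reads for each gene, which, per the file headers, the authors made with featureCounts 2.0.6 on an mm10 annotation, without strand, counting the reads of a pair separately and leaving out multi-mapping reads and reads over several genes. The submitters' processing notes also name Trim Galore 0.6.10, HISAT2 2.2.1 and DESeq2 1.34.0, and the paper's methods name mm39. Totals were 27879889 to 34335214 counts, and replicates varied beyond counting error.

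Counts were tested with edgeR 4.0.16 in R 4.3.3 (filterByExpr, TMM, quasi-likelihood F-test, Benjamini-Hochberg adjustment over 17155 genes). Group values are mean and SD of TMM-normalised CPM, and exact permutation tests were run for single genes. The length trend was removed with a loess of span 0.3 in each library, and deviations used log2 CPM with a prior count of 2. Alternatives were DESeq2 1.42.0, limma-voom (limma 3.58.1), other normalisations and filters, length and GC corrections, a replicate block and leaving out each library. The fits were tested on simulated data. At the limits of a call, edgeR called 34 of 100 genes changed by 1 on the log2 scale and 0 of 100 changed by 0.5. DESeq2 called 70 of 100 and 4 of 100, with 8 false calls. Coordinates are those of the files. Symbols came from GENCODE vM39, and promoter windows from RefSeq GRCm38.p6.

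The members, gene lists and tests were chosen with earlier results of these data known. Named members were all with an adjusted p under 0.05 (none), the 6 highest and 6 lowest log2 fold changes, the 3 highest and lowest levels per kb, and 20 chosen for their roles, and of each other list the 2 genes with the lowest p, and Fos. Copies of cytosolic ribosomal genes (names with l, rt, rg1 or ps) were left out of that list.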

Additional observations from a re-analysis of the deposited data

Results flagged for a closer look

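In 5 named genes, 1 of the 4 Gent+Fos OE libraries lay far from the other 3 by Dixon's test, which flags about 1 in 20 groups by chance. For Mrps5, Gent+Fos OE replicate 2 stood at 44.9 CPM and the others at 40.3 to 41.0 CPM. For Mrps30, replicate 1 stood at 17.8 CPM and the others at 15.5 to 15.8 CPM. Over all members, 4 of 78 had such a library. Lars2 was at 3740 CPM in replicate 4 and at 570 to 594 CPM in the others. For mt-Co3, replicate 1 was at 23.0 CPM and the others at 31.9 to 32.7 CPM. Fos was at 167 CPM in replicate 3 and at 149 to 151 CPM in the others.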

How the results depend on the processing

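The median log2 fold change of the members was negative, and 0 members were called, under each alternative run. On simulated data edgeR called 0 of 100 genes changed by 0.5 on the log2 scale, so a lack of calls at such sizes says little. The count of members at an unadjusted p under 0.05 (46) ran from 20 to 59 with 1 library left out (9.68 to 16.8% of all tested genes were then lower at that limit). It was 19 with Gent replicate 2 taken out and the length trend removed (all genes, 12.0%), 12 in DESeq2 without Gent replicate 2 (8.22%) and 24 with the replicate block (9.93%). Calls over all genes (71) ran from 5 to 138 with 1 library left out, and were 611 in DESeq2, 204 with no filter, 130 with the length trend removed, 136 with length and GC trends removed, 175 with Gent replicate 2 taken out and the length trend removed, 647 in DESeq2 without Gent replicate 2, 0 with the replicate block and 319 at an adjusted p under 0.05 with any fold change. The cause of these shifts was not tested. Same-numbered libraries correlated at 0.06, -0.04 and 0.03, and other pairs between -0.06 and 0.04. No pairing was seen, but values near 0 cannot exclude that same-numbered pools were prepared together. The block gave a member median of -0.41 and, for Fos, 2.03 (edgeR adjusted p = 0.0296).

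Some genes changed sign, most of them with fold changes near 0. Mrpl18 was at 0.0163 with the length trend removed, 0.106 with block and length, and 0.0648 with length and GC. Mrps34 was at 0.0590, 0.0702 and 0.148 in the same fits, between -0.23 and 0.17 with 1 library left out, and without Gent replicate 2 at 0.21 with the length trend removed and 0.18 in DESeq2. Mrps5 ran from -0.15 to 0.0577 with 1 library left out, and without Gent replicate 2 was at 0.0149 with the length trend removed and 0.0652 in DESeq2. Mrps6, at -0.49 with all libraries, was at 0.0280 without Gent replicate 2 and with the length trend removed, and Yy1 at -0.00136 with the length trend removed. Fits with length and GC removed together, or with Gent replicate 2 taken out beside another change, were chosen after seeing the data.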
